A study of Saccharomyces cerevisiae with 14 samples.

Results

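The first 20 min after release from a pheromone block were followed in *arp8-AA* cells, and the 2 libraries taken 20 min after release were compared with the 2 taken at 10 min across all genes. These 4 libraries, chosen by their titles, are part of a series of 14, and 4 libraries of *ARP8* cells taken at the same times served as the reference. The *arp8-AA* cells (strain yPB4) carry a genomic *ARP8* allele, S65A and S233A, in which 2 serines of Arp8 are replaced by alanine, so that the Dbf4-dependent kinase (DDK) cannot phosphorylate them. All cells of the comparison are of mating type *MAT*a with his3delta1, leu2delta0 and ura3delta0, and the label of the *ARP8* strain (yCFK51) adds met15delta0. Each genotype is represented by 1 strain. Cells were arrested in G1 with α-factor, washed and released into fresh warm medium, and total RNA depleted of ribosomal RNA was sequenced from 2 biological replicates at each time. The times of 10 and 20 min were chosen to represent G1 and early S. By the study's flow cytometry *arp8-AA* cells entered S phase later than *ARP8* cells, so that equal times may not be equal stages.

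In budding yeast, passage through Start switches on a large regulon through the transcription factors SBF and MBF, which bind the promoter elements SCB and MCB. The regulon includes G1 cyclins, replication fork proteins, cohesin and enzymes of deoxynucleotide synthesis, and it is switched off again during S phase, while the core histone genes peak with DNA replication. Genes of mating are induced by α-factor and decay after its removal, *MCM* genes peak earlier, between mitosis and G1, and the *CLB2* cluster, driven by forkhead factors, follows in G2 and mitosis. Arp8 is a subunit of the chromatin remodeller INO80, which spaces nucleosomes at promoters and replication origins.

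Before the comparison, the libraries were set against each other. Replicate 1 of *arp8-AA* was sequenced to 2365901 estimated counts at 10 min and 2948550 at 20 min, replicate 2 to 6016858 and 3068431, and 5453 of 6612 transcripts passed the filter on low counts. Levels are given as CPM, the counts relative to the TMM-scaled library total, and in every series of 4 values below the order is 10 and 20 min of replicate 1 and then 10 and 20 min of replicate 2. The 2 replicates stood apart in both genotypes. The first principal component of the 8 libraries held 48.6% of the variance and placed all 4 libraries of replicate 1 between -28.5 and -8.09 and all 4 of replicate 2 between 10.5 and 25.3. Along this axis the 20 min library lay above its 10 min library in each of the 4 pairs. The summed level of 27 genes of the pheromone response was 5903, 5202, 1549 and 1550 CPM in *arp8-AA* cells, and that of the 8 core histones was 856, 2999, 3372 and 9141 CPM. Replicate 2 thus had a lower pheromone response already at 10 min than replicate 1 had at 20 min, and its histone sum at 10 min lay slightly above that of replicate 1 at 20 min. In *ARP8* cells the sums were 5799, 5588, 1600 and 1306 CPM for the pheromone response and 1105, 5010, 5753 and 8478 CPM for the histones, so that replicate 2 again had the lower pheromone and the higher histone sum at each time. Since bulk RNA was measured, fewer cells with a transcript and less of it per cell cannot be told apart. Markers of the labelled mating type were present. The 7 *MAT*a genes summed to 2195, 1689, 660 and 352 CPM, whereas 4 *MAT*alpha genes summed to between 11.1 and 14.4 CPM and 8 meiotic genes to between 26.6 and 44.1 CPM. *URA3*, *LEU2* and *MET17* (MET15) were at 0 in all 8 libraries, although the label of the *arp8-AA* strain does not list met15delta0. *HIS3*, of which the allele his3delta1 lacks a part, was at between 27.4 and 62.8 CPM.

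With an adjusted p under 0.05 (edgeR's quasi-likelihood test with the replicate number as a block, Benjamini-Hochberg adjustment over 5453 transcripts), 0 transcripts were called higher at 20 min (0%) and 1 was called lower (0.0183%). DESeq2 called 10 higher and 28 lower, and limma-voom 0 and 1. Standard errors of the log2 fold changes had a median of 0.21. With 2 libraries against 2, an exact permutation test of a single gene that ignores the replicate number cannot go below p = 0.333. Permuting within replicates allows fewer arrangements still. With an adjusted p under 0.1, 5 transcripts were higher (0.0917%) and 8 lower (0.147%). With an unadjusted p under 0.05 there were 544 (9.98%), of which 257 were higher (4.71%) and 287 lower (5.26%), and in *ARP8* cells there were 549 (10.1%). Of all tested transcripts, 1497 were higher at 20 min in both pairs (27.5%), 1496 were lower in both (27.4%), and the remaining 2458 with a direction in each pair moved oppositely in the 2 pairs (45.1%, and 42.5% in *ARP8* cells). Both 20 min libraries lay above both 10 min libraries in 649 transcripts (11.9%) and below them in 611 (11.2%). A pair here is the 10 and the 20 min library with the same replicate number. Without replicate 1 of *arp8-AA* the fit called 42 transcripts higher and 57 lower, and without replicate 2 it called 16 and 21, in each case from 1 pair that was assumed to vary like the *ARP8* libraries. Of the 57, 7 were fork genes, 5 were *MCM* or ORC genes and 5 stress genes, while of the 16 higher without replicate 2, 7 were core histones. Without replicate 1 of *ARP8* the counts were 3 and 0, and without its replicate 2 they were 0 and 0. The lists of genes described next are read against these shares, which hold for all tested transcripts, and no list was tested as a set.

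**Figure D1:**
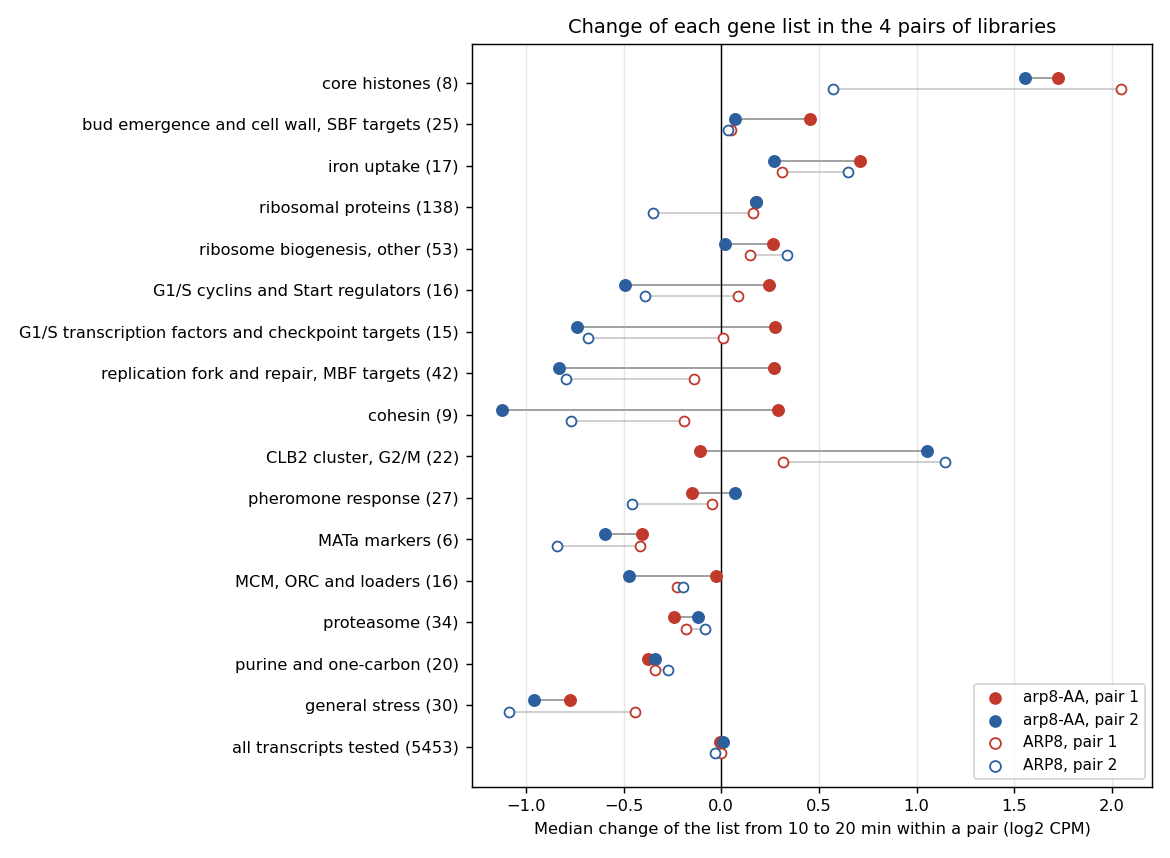
Median change of each gene list from 10 to 20 min within a pair (x axis, log2 CPM), with the number of tested members in brackets. Filled points are *arp8-AA* and open points *ARP8*, red for replicate 1 and blue for replicate 2, and grey lines join the 2 pairs of a genotype. In *arp8-AA* cells the core histones (1.73 and 1.56) lie to the right and general stress (-0.78 and -0.96) to the left of 0 in both pairs, while the fork, cohesin and G1/S factor lists lie to the right in pair 1 and to the left in pair 2.

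The transcript called lower was *ADE17* (YMR120C, chromosome XIII of R64 from 509280 down to 507502, minus strand), which encodes an enzyme of the last steps of de novo purine synthesis. Its level was 836, 320, 959 and 357 CPM. Both 20 min libraries lay far below both 10 min libraries, and replicates differed little. The log2 fold change was -1.40 (standard error 0.15, adjusted p = 0.0134), lower in 2 of 2 pairs. *ADE17* was also among the 6 transcripts called in *ARP8* cells (0.11%), at 681, 274, 979 and 324 CPM (log2 fold change -1.46, adjusted p = 0.00949), and the difference between the genotypes was 0.06 (standard error 0.21). Among 12 alternative fits the adjusted p in *arp8-AA* cells ranged from 1.8e-11 to 1, and the call was lost in 4 of them: without the replicate block (adjusted p = 1), with the *arp8-AA* libraries fitted alone (0.0624), and without replicate 1 or 2 of *ARP8* (0.0553 and 0.0576). The log2 fold change itself stayed between -1.43 and -1.38.

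*ADE17* was the only gene called among those of purine and one-carbon metabolism. Of 20 members tested, *ADE17* included, 9 were lower and 0 higher with an unadjusted p under 0.05, against 5.26% and 4.71% of all transcripts, and 15 were lower in both pairs, against 27.4%. The median log2 fold change of the list was -0.37, with within-pair medians of -0.38 and -0.34. The next members by p were chosen after their values were seen. *GCV1*, a subunit of the mitochondrial glycine cleavage system, was at 176, 85.4, 161 and 78.7 CPM (log2 fold change -1.03, adjusted p = 0.0944). *ADE2*, whose loss gives red colonies, was at 205, 97.8, 139 and 71.4 CPM (-1.01, adjusted p = 0.226). In both genes the 20 min libraries lay below the 10 min libraries, and neither passed the test of edgeR, while DESeq2 called both (adjusted p = 0.00242 and 0.0252). *IMD3*, an inosine monophosphate dehydrogenase, which leads from the purine pathway to guanine nucleotides, was also chosen after its values were seen and was at 153, 157, 201 and 178 CPM. In *ARP8* cells 8 of 20 members were lower with an unadjusted p under 0.05, against 307 of all 5453 transcripts. There 15 members were lower in both pairs, against 1631 of all 5453.

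The stretch of 250 bases before the start codon of *ADE17*, read from R64 in the direction of transcription (chromosome XIII, 509281 to 509530, minus strand), is shown because it holds 1 copy of TGACTC, the element bound by Bas1 and Gcn4, which are activators of purine and amino acid synthesis. The capitals mark that element.
ADE17: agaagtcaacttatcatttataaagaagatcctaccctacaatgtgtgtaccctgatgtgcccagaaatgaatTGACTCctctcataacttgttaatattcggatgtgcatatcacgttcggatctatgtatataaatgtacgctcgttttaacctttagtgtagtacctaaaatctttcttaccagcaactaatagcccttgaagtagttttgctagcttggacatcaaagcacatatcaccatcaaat
TGACTC on either strand was found in 13 of the 20 such windows of the purine and one-carbon list (65%), against 6.24% of the 6007 windows before all nuclear genes. In the 285 windows of transcripts lower at an unadjusted p under 0.05 the share was 9.12%, and in the 252 of transcripts higher 4.37%. Of the windows of amino acid genes 58.7% held the element, and 8 of 46 of these genes were lower and 2 higher at an unadjusted p under 0.05, against 5.26% and 4.71% of all transcripts, with a median log2 fold change of 0.00. Of the 10 windows of arginine genes 60% held it, 1 of these genes was lower and 0 higher by this measure, 6 were lower in both pairs, and the median was -0.23. *HIS4*, an enzyme of histidine synthesis, was at 866, 552, 598 and 382 CPM (log2 fold change -0.65, adjusted p = 0.255).

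The 8 core histone genes were higher at 20 min in both pairs, against 27.5% of all transcripts, and all 8 had an unadjusted p under 0.05, while 0 passed the adjusted threshold in edgeR and 4 did in DESeq2. *HTA1* (H2A; chromosome IV, 915530 to 915928) was at 206, 621, 692 and 1868 CPM. *HHF1* (H4; chromosome II) was at 102, 598, 613 and 2269 CPM. The 20 min library of replicate 1 and the 10 min library of replicate 2 had nearly equal levels of both genes, so that the groups overlapped, although each pair gave a change of at least 1.43 on the log2 scale. *HTB1* (H2B) had the largest log2 fold change of the 8, 2.41 (standard error 0.40, adjusted p = 0.0793), at 2.43, 14.7, 16.0 and 89.5 CPM, and *HHT2* (H3) the smallest, 1.15 (standard error 0.23, adjusted p = 0.128), at 45.7, 133, 168 and 309 CPM. Gene copies for the same histone share part of their sequence, from 1.37% of 31-mers in *HTB1* to 40.8% in *HHF1*, which limits how well the counts separate them. The pair medians were 1.73 and 1.56 in *arp8-AA* and 2.05 and 0.57 in *ARP8* cells. In replicate 2 the histones thus differed more between 10 and 20 min in *arp8-AA* cells, which began from lower levels (3372 against 5753 CPM summed). In replicate 1 *arp8-AA* cells also began lower (856 against 1105 CPM), but there the histones differed less than in *ARP8* cells. None of the 8 differences between the genotypes passed the test, and the smallest p belonged to *HTB1* (difference 1.34, standard error 0.57, adjusted p = 0.962). The linker histone gene *HHO1* was at 14.97, 33.3, 36.5 and 59.6 CPM (log2 fold change 0.85, adjusted p = 0.393).

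**Figure D2:**
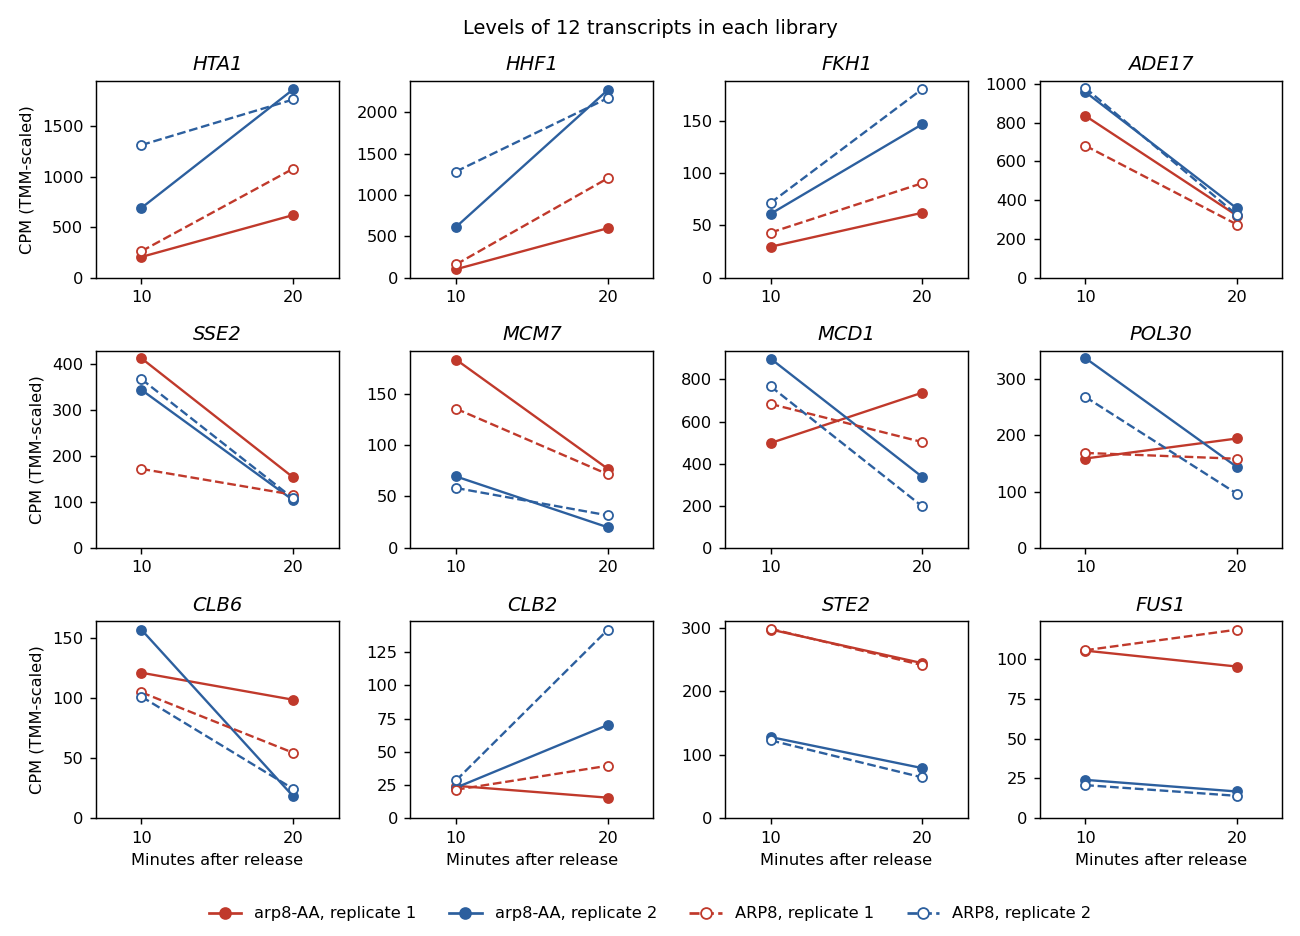
Level of 12 transcripts (y axis, TMM-scaled CPM, starting at 0) at 10 and 20 min after release (x axis) in each library. Solid lines with filled points are *arp8-AA*, dashed lines with open points *ARP8*, red for replicate 1 and blue for replicate 2. *ADE17*, *SSE2* and *MCM7* were lower and *HTA1*, *HHF1* and *FKH1* higher at 20 min in all 4 pairs, whereas *MCD1* and *POL30* were higher in 1 pair, replicate 1 of *arp8-AA*, and lower in the other 3.

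Many genes of the G1/S regulon were higher at 20 min in 1 pair of *arp8-AA* libraries and lower in the other. Among 42 genes of the replication fork and repair, mostly MBF targets, 36 were higher at 20 min in replicate 1 and lower in replicate 2, against 21.9% of all transcripts, and the opposite pattern occurred in 0, against 23.2%. The within-pair medians were 0.27 and -0.83. The same direction of split was found in 7 of 9 cohesin genes (medians 0.29 and -1.12), in 10 of 15 G1/S transcription factors and checkpoint genes (0.28 and -0.74), in 6 of 16 G1/S cyclins and Start regulators (0.24 and -0.49) and in 81 of 153 genes of the study's replication list. Of the other cyclins and Start regulators, 5 were higher and 5 lower in both pairs. The split was found in 4 of 8 genes of deoxynucleotide synthesis (medians 0.34 and -0.08) and in 10 of 25 SBF targets of bud emergence and the cell wall (0.46 and 0.07), of which 12 were higher in both pairs. The fitted change over both pairs averages these directions, and the median of the fork list was -0.32 in the fit of all libraries, 0.27 without replicate 2 of *arp8-AA* and -0.85 without replicate 1. Only 2 of the 42 fork genes, *RLF2* and *ELG1*, were lower with an unadjusted p under 0.05 and 0 were higher, against 5.26% and 4.71% of all transcripts.

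Single genes show the shape. *POL1*, the catalytic subunit of DNA polymerase alpha, was at 322, 461, 385 and 361 CPM, and *POL30*, which encodes the sliding clamp PCNA, at 159, 195, 338 and 144 CPM. *RNR1*, the large subunit of ribonucleotide reductase, was at 969, 1576, 1876 and 1337 CPM. All of these had their lowest *arp8-AA* level in the first library or in the last and a maximum between them. The cohesin subunit *MCD1* was at 498, 737, 899 and 337 CPM, and the S phase cyclin *CLB5* at 128, 147, 204 and 74.1 CPM. *CLB6*, the other early S phase cyclin, had no increase in replicate 1 and was at 121, 98.5, 157 and 18.02 CPM (log2 fold change -1.51, standard error 0.50, adjusted p = 0.386). The level in the last library was the lowest for *MCD1*, *CLB5* and *CLB6*, and none of these genes passed the test. The G1 cyclin *CLN1* was at 38.4, 59.3, 107 and 59.97 CPM and *CLN2* at 19.4, 24.5, 41.2 and 40.3 CPM. *RAD53*, the checkpoint kinase, was at 157, 183, 195 and 70.5 CPM, and *SPT21*, a regulator of histone transcription, at 75.2, 76.3, 125 and 42.6 CPM.

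*ARP8* cells differed from this in replicate 1. The fork list had within-pair medians of -0.14 and -0.80 there. In these cells 12 of its 42 genes were higher in replicate 1 and lower in replicate 2, against 1235 of all 5453 transcripts. The first of these counts was near the share of all transcripts. Another 29 of the 42 were lower in both pairs, against 1631 of all 5453. The cohesin medians were -0.19 and -0.77. *MCD1* was at 684, 502, 767 and 197 CPM and *POL30* at 169, 159, 269 and 96.3 CPM, so that in replicate 1 their levels at 20 min lay below those at 10 min. With 1 pair in each genotype this difference between replicate 1 of the genotypes has no replicate check. Over both pairs the difference in the change between genotypes had a median of 0.16 for the fork list, 0 genes of the list passed the test of this difference and 0 had an unadjusted p under 0.05, against 2.02% of all transcripts.

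The windows before *POL1* (chromosome XIV, 429837 to 430086, plus strand) and *RLF2*, the largest subunit of the chromatin assembly factor CAF-1 (chromosome XVI, 594226 to 594475, plus strand), are shown as examples of fork genes with 2 copies of the MCB element ACGCGT each, in capitals.
POL1: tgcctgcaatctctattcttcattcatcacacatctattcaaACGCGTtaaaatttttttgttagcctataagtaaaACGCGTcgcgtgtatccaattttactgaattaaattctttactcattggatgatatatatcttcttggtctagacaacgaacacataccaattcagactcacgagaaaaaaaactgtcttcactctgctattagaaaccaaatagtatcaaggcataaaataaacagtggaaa
RLF2: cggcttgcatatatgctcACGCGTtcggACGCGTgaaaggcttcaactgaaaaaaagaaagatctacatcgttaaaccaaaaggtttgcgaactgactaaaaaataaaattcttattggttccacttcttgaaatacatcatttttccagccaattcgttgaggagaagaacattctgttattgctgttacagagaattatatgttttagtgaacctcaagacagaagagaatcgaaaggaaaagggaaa
The MCB element was found in 26 of 42 windows of the fork list (61.9%) and in 5 of 9 of the cohesin list (55.6%), against 2.9% of all 6007 windows. Among transcripts higher in replicate 1 and lower in replicate 2 the share was 8.6% of 1174 windows, among those with the opposite pattern 0.972% of 1235, and among those higher or lower in both pairs 1.5% and 1.84%. The SCB elements CGCGAAA or CACGAAA gave 11.9%, 5.59%, 8.16% and 4.63% in the same order, against 7.08% of all windows. SCB and MCB can overlap in CGCG, and a copy farther than 250 bases from the start codon was not counted. *RLF2* itself was at 69.2, 65.5, 107 and 44.2 CPM (log2 fold change -0.70, adjusted p = 0.455), and *ELG1*, which unloads PCNA, at 71.6, 75.6, 116 and 37.7 CPM (-0.78, adjusted p = 0.484).

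**Figure D3:**
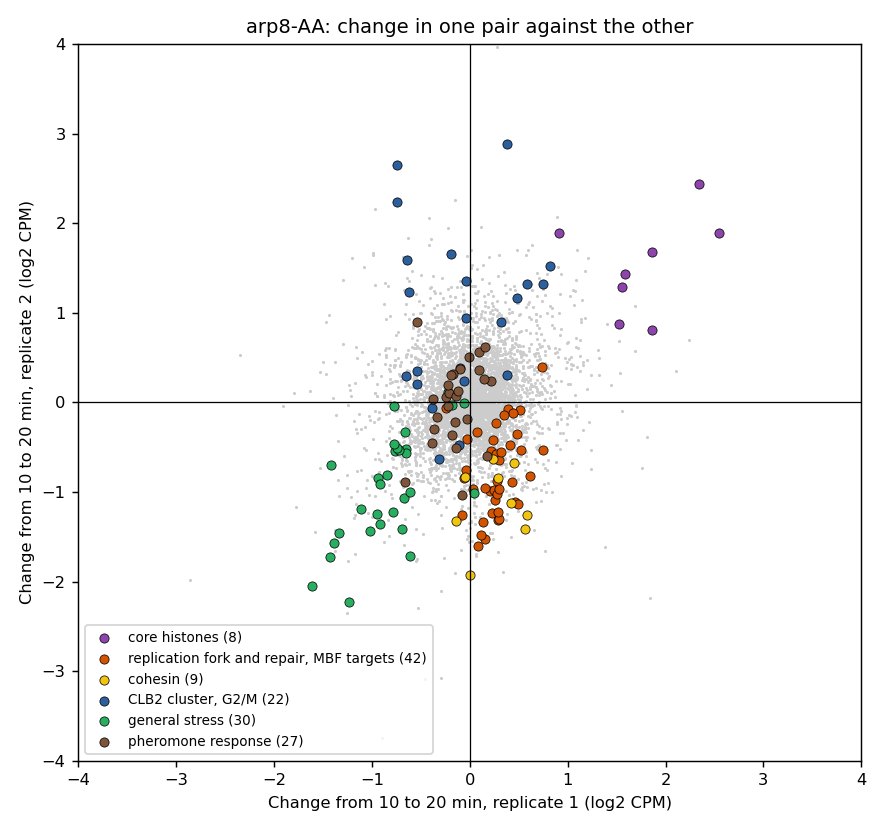
Change from 10 to 20 min in replicate 1 (x axis) against replicate 2 (y axis) of *arp8-AA* cells, both in log2 CPM. Grey points are all tested transcripts, of which 7 lie outside the axes, and coloured points are members of 6 lists. Core histones occupy the upper right, general stress the lower left, fork and cohesin genes the lower right, and the *CLB2* cluster the upper part.

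Genes of the *CLB2* cluster were higher at 20 min mainly in replicate 2. Of 22 members tested, 8 were higher and 0 lower with an unadjusted p under 0.05, against 4.71% and 5.26%, 12 were lower in replicate 1 and higher in replicate 2, against 23.2%, and the within-pair medians were -0.11 and 1.05. *CLB2*, the main mitotic cyclin, was at 24.3, 15.3, 22.9 and 70.1 CPM, and *SWI5*, an activator of M/G1 genes, at 2.02, 0.98, 2.19 and 12.5 CPM. In both genes only the 20 min library of replicate 2 stood above the other 3 libraries. The bud site proteins *BUD3*, at 21.8, 37.2, 26.8 and 67.5 CPM, and *BUD4*, at 23.9, 42.7, 41.4 and 120 CPM, were higher at 20 min in both pairs (log2 fold changes 1.09 and 1.25, adjusted p = 0.144 and 0.164). In *ARP8* cells the medians were 0.31 and 1.14, and *CLB2* reached 39.4 CPM in replicate 1 and 142 CPM in replicate 2 at 20 min. There 14 of 22 members were higher in both pairs, against 1507 of all 5453 transcripts. In *arp8-AA* cells 7 of 22 were, which is near the 27.5% of all transcripts. The list median was 0.60 in the fit of all libraries, -0.11 without replicate 2 of *arp8-AA* and 1.10 without replicate 1.

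*FKH1*, one of the forkhead factors that act on the *CLB2* cluster and on early origins, was higher at 20 min in each of the 4 pairs. It was at 29.5, 61.9, 60.9 and 146 CPM in *arp8-AA* cells, where replicate 1 at 20 min was close to replicate 2 at 10 min. The log2 fold change was 1.17 (standard error 0.18, adjusted p = 0.0793), the smallest p among transcripts higher at 20 min. *FKH1* was called in *ARP8* cells, with a log2 fold change of 1.21, and the difference between genotypes was -0.04 (standard error 0.25).

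The 6 genes of the MCM2-7 helicase were lower at 20 min in both pairs, each with an unadjusted p under 0.05, and were the 6 of 16 members of the MCM, ORC and loader list that were lower by this measure (5.26% of all transcripts). *MCM7* was at 183, 76.9, 69.5 and 19.99 CPM (log2 fold change -1.46, standard error 0.21, adjusted p = 0.0714), and *MCM3* at 330, 186, 165 and 58.3 CPM (-1.14, standard error 0.19, adjusted p = 0.0793). The 20 min library of replicate 1 and the 10 min library of replicate 2 again had similar levels. The other members behaved differently. *ORC1*, the largest origin recognition subunit, chosen after its values were seen, was at 116, 171, 142 and 197 CPM (0.52, adjusted p = 0.36), and *CDC6*, which loads the helicase, was at 30.3, 16.3, 16.0 and 16.7 CPM. In *ARP8* cells *MCM7* was at 135, 71.6, 58.3 and 31.6 CPM (-0.91), and the difference between genotypes was -0.55 (standard error 0.29, adjusted p = 0.962).

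Mating genes differed far more between the replicates than between the times. *FUS1*, needed for cell fusion, was at 106, 95.5, 24.1 and 16.7 CPM, and *FIG1*, a membrane protein induced in mating, at 672, 516, 80.2 and 82.6 CPM. Within a pair the 27 genes of the pheromone response had medians of -0.15 and 0.07. With an unadjusted p under 0.05, 2 of the 27 were lower, namely *GPA1* and *FAR1*, against 5.26% of all transcripts. *GPA1*, the G protein alpha subunit of the pathway, was at 220, 139, 70.7 and 38.01 CPM (log2 fold change -0.76, adjusted p = 0.192). Genes specific to *MAT*a cells were lower within each pair, in 6 of 6 tested members, against 27.4% of all transcripts. The a-factor exporter *STE6* was at 935, 640, 349 and 131 CPM (-0.96, standard error 0.20, adjusted p = 0.128) and the α-factor receptor *STE2* at 297, 244, 128 and 78.7 CPM (-0.49, adjusted p = 0.455). The 4 levels of *STE6*, *STE2* and *GPA1* descended in the order in which they are given here, which is also the order of the first principal component.

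General stress genes were lower at 20 min in nearly every case. Of 30 members tested, 22 were lower and 0 higher with an unadjusted p under 0.05, against 5.26% and 4.71% of all transcripts, and 28 were lower in both pairs, against 27.4%. The median log2 fold change was -0.87, with within-pair medians of -0.78 and -0.96. *SSE2*, a nucleotide exchange factor of Hsp70, was at 413, 154, 345 and 104 CPM (log2 fold change -1.55, standard error 0.31, adjusted p = 0.128). *YGP1*, a secreted glycoprotein made on nutrient limitation, was at 35.2, 11.1, 46.4 and 10.8 CPM (-1.87, standard error 0.37, adjusted p = 0.128). Both 20 min libraries lay below both 10 min libraries in each gene. *HSP104*, the disaggregase, chosen after its values were seen, was at 2275, 1118, 2614 and 966 CPM (-1.21, adjusted p = 0.128). Unlike the cell cycle lists, the summed level of this list was nearly equal in the replicates, at 6935 and 7043 CPM at 10 min and 3813 and 3328 CPM at 20 min. *HSP12*, also named after its values were seen, was an exception, with 171, 146, 37.5 and 40.6 CPM. In *ARP8* cells the list summed to 3937, 2810, 7717 and 3360 CPM, so that replicate 1 began lower there. In these cells 17 members were lower with an unadjusted p under 0.05, against 307 of all 5453 transcripts. In both pairs 27 members were lower, against 1631 of all 5453. None of the members differed between genotypes with an adjusted p under 0.05.

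The window before *SSE2* (chromosome II, 575997 to 576246, minus strand) shows a stress element, AGGGG or its complement, in capitals.
SSE2: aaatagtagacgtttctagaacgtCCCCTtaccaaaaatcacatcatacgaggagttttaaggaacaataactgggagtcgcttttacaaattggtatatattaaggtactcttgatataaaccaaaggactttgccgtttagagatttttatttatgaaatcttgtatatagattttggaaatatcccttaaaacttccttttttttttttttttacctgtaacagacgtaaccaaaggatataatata
This element was found in 22 of 32 windows of the general stress list (68.8%). It was also found in 119 of the 285 windows of all transcripts lower at an unadjusted p under 0.05 (41.8%), in 45 of the 252 of those higher (17.9%) and in 18.8% of all windows. The general stress genes are among the transcripts counted here.

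**Figure D4:**
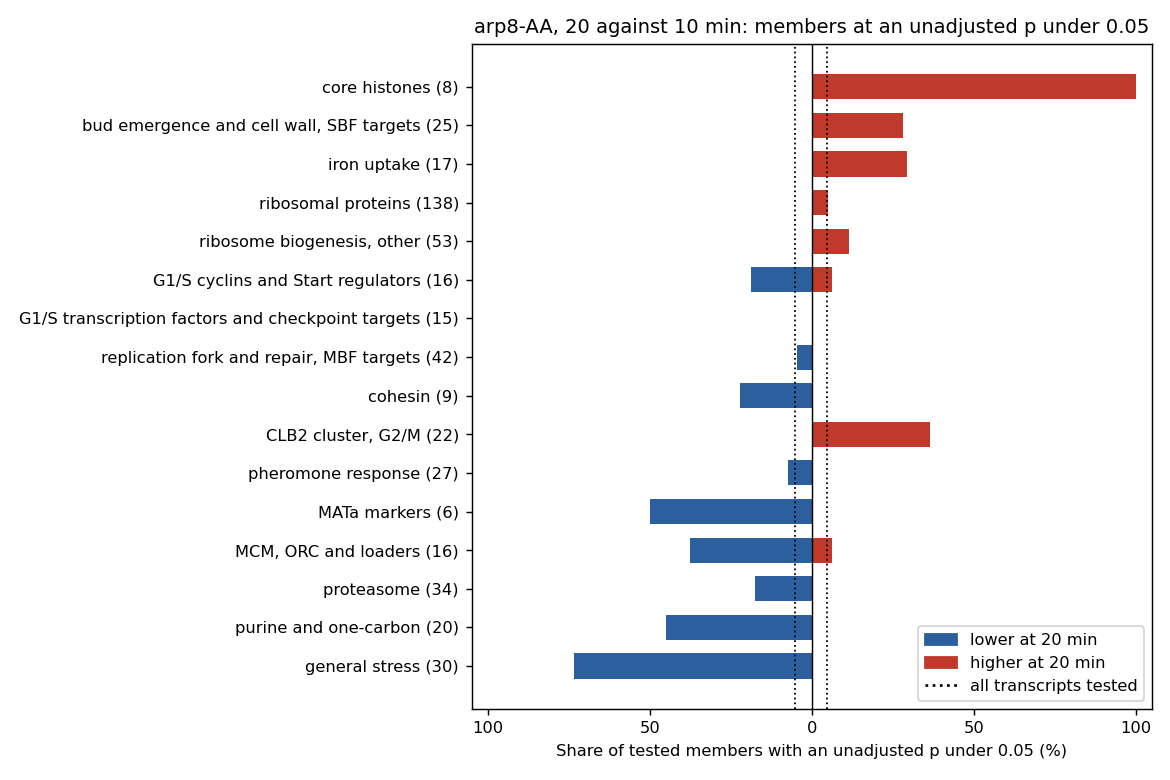
Share of tested members of each list (x axis, %) with an unadjusted p under 0.05 in *arp8-AA* cells, higher at 20 min to the right in red and lower to the left in blue. Dotted lines give the share of all tested transcripts, 4.71% higher and 5.26% lower. Of the lists plotted, the core histones (8 of 8 higher) extend farthest to the right and general stress (22 of 30 lower) farthest to the left.

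Several further groups held members that differed between the times in 1 direction. Iron uptake genes were higher with an unadjusted p under 0.05 in 5 of 17 cases and lower in 0, against 4.71% and 5.26% of all transcripts. They were led by the ferric reductase *FRE1* at 311, 559, 376 and 733 CPM (log2 fold change 0.91, standard error 0.16, adjusted p = 0.0924), and *FRE1* gave 0.91 in *ARP8* cells as well. Bud emergence and cell wall genes, SBF targets, were higher by the same measure in 7 of 25 cases and lower in 0, against the same 4.71% and 5.26%. *GAS3*, a member of a family of cell wall glucan transferases, was at 12.5, 29.7, 35.0 and 107.8 CPM (1.45, standard error 0.30, adjusted p = 0.128). The ergosterol and lipid list differed in both directions, with 1 of 31 members lower and 2 higher by this measure, against 5.26% and 4.71% of all transcripts. *OLE1*, the fatty acid desaturase, was at 1085, 488, 1155 and 678 CPM (-0.96, standard error 0.17, adjusted p = 0.0924), with both 20 min libraries below both 10 min libraries. *ERG6*, of the same list, was higher in both pairs, at 257, 293, 208 and 483 CPM. Proteasome genes were lower in both pairs in 22 of 34 cases and higher in both in 0, against 27.4% and 27.5% of all transcripts. *PRE3*, a catalytic core subunit, was at 352, 271, 280 and 141 CPM (-0.67, adjusted p = 0.313). Subtelomeric *YRF1* helicases were lower with an unadjusted p under 0.05 in 6 of 8 cases, against 5.26% of all transcripts. One of the exceptions was *YRF1-6*, higher at 20 min in replicate 1 and lower in replicate 2. Nearly all of their 31-mers occur in another coding sequence, and the counts of single copies are uncertain. *YRF1-3* and *YRF1-7* had identical levels in every library, as did *YRF1-1*, *YRF1-5* and *YRF1-8*, so that these cases are not separate measurements. Such copies are also among the transcripts lower with an adjusted p under 0.1 and among those called in *ARP8* cells.

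Ribosomal protein genes were higher in both pairs in 99 of 138 cases and lower in both in 0, against 27.5% and 27.4% of all transcripts, by a small amount. Their median log2 fold change was 0.17, with pair medians of 0.18 and 0.18. With an unadjusted p under 0.05, 7 of 138 were higher and 0 lower, against 4.71% and 5.26% of all transcripts, so that the higher count was near the share of all transcripts. In *ARP8* cells the pair medians were 0.16 and -0.35. There 96 of 138 were higher in replicate 1 and lower in replicate 2, against 1235 of all 5453 transcripts. The 53 other ribosome biogenesis genes had medians of 0.27 and 0.02 in *arp8-AA* cells. Glycolytic genes were lower in both pairs in 10 of 16 cases with a median of -0.12, and *PDC1*, pyruvate decarboxylase, stood apart at 589, 637, 532 and 2073 CPM, with pair changes of 0.11 and 1.96 (log2 fold change 1.23, adjusted p = 0.403, and 0.11 without replicate 2). It was 490 CPM in the corresponding *ARP8* library.

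The interaction of genotype and time asks whether the change from 10 to 20 min differed between *arp8-AA* and *ARP8* cells. It was called for 0 of 5453 transcripts (0%), with 110 at an unadjusted p under 0.05 (2.02%), with DESeq2 for 1 and with limma-voom for 0. Among the transcripts with the smallest p were *SVS1*, a cell wall and vacuolar protein, at 16.99, 32.9, 33.6 and 91.8 CPM in *arp8-AA* and 20.5, 21.2, 32.9 and 15.1 CPM in *ARP8* cells, and the hexose transporter *HXT2*, with log2 changes of 0.35 and 1.46 in the 2 pairs of *arp8-AA* and of 0.13 and -0.70 in those of *ARP8* cells. The differences between genotypes were 1.64 (standard error 0.52) and 1.21 (standard error 0.38), both with an adjusted p of 0.962. In both genes the 20 min library of replicate 2 was the high one in *arp8-AA* cells. The smallest p belonged to the helicase *YRF1-6* (difference 1.14, standard error 0.25). It was at 414, 512, 244 and 201 CPM in *arp8-AA* and 259, 115, 137 and 65.8 CPM in *ARP8* cells. The reading frame YJL225C was also among the 8 with the smallest p (0.95, standard error 0.30). *YRF1-6* and YJL225C had an adjusted p of 0.962. All of their 31-mers occur in another coding sequence, and their counts are uncertain.

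*ARP8* itself (YOR141C, chromosome XV) was at 209, 206, 196 and 130 CPM in *arp8-AA* cells, with the lowest value in the last library (log2 fold change -0.29, standard error 0.19, adjusted p = 0.631). The substitutions are not visible in counts. The INO80 subunits, Arp8 included, had a list median of 0.08. An unadjusted p under 0.05 was found in 0 of 15, against 9.98% of all transcripts in either direction. With 15 genes a count of 0 is not set apart from that share. *CDC7*, the kinase subunit of DDK, was at 61.1, 57.1, 61.1 and 40.6 CPM, and its activator *DBF4* at 32.4, 40.1, 69.8 and 36.05 CPM, neither of which passed the test. *ACT1*, actin, was at 330, 359, 453 and 538 CPM (0.19, adjusted p = 0.749).

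The study's cell cycle list, which holds genes of every phase, had 49 of 686 tested members higher and 29 lower with an unadjusted p under 0.05. The shares of all transcripts were 4.71% and 5.26%. Of the same members, 228 were higher in replicate 1 and lower in replicate 2, against 21.9% of all transcripts. Lists of arginine, sulfur, phosphate and pyrimidine metabolism, of deoxynucleotide synthesis, of hexose transport and of the mitochondrial ribosome had medians between -0.23 and 0.14 on the log2 scale in *arp8-AA* cells.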

How the data were processed

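RNA-seq libraries of synchronised cells (10 and 20 min after release, 2 replicates per genotype and time) were analysed, and the asynchronous libraries were not used here. The authors pseudoaligned the reads to R64 transcripts (Ensembl annotation 108) with kallisto 0.48 at default parameters, which do not use the strand, and deposited expected counts (estimated counts) per transcript without normalization. The deposited TPM, which kallisto computed from these counts and effective lengths, was used only to check the tables. Expected counts were rounded to whole numbers. The main test was that of edgeR 4.0.16 under R 4.3.3 (filterByExpr, TMM, quasi-likelihood test, two-sided, all 8 libraries in 1 fit, replicate number as block). Within-pair changes are differences of log2 CPM with a prior count of 2. DESeq2 1.42.0 and limma 3.58.1 served as alternatives, and Python 3.11.15 with matplotlib 3.10.9 for promoters and plots. The test was tried on simulated counts. An adjusted p under 0.05 is referred to as called. Of 6612 transcripts, 5929 matched a locus tag of the RefSeq R64 annotation, which gave coordinates, and the 250 bases before each start codon were read from that genome. Libraries with equal replicate numbers deviated together from their group means (r between 0.478 and 0.653 for the 6 pairs of groups), and with 2 replicates this pairing is taken from the titles and from the study's methods, which adjust for the experimental batch. No library was a copy of another (chi-square per degree of freedom at least 6.47 over all 28 pairs of the 8 libraries, and at least 20.5 within a group). The titles call the replicates biological, but what a batch shared is not given in the sources used here. The p-values of the main test measure the spread between these libraries that remains after the replicate block, which may in part be technical.

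Gene lists were written from general knowledge, apart from the study's cell cycle and replication lists, and the genes compared and the lists were chosen with earlier results of these data known. Genes named are those called, or else the 5 with the smallest p in a direction, the called or else the 2 members with the smallest p of each list, a set of cell cycle landmarks and strain markers, and the 8 with the smallest p of the interaction. Others are named as chosen after their values were seen. Transcripts with over 50% of their 31-mers in another coding sequence are called uncertain. No fold change or p-value of the authors was used. One of the gene lists is not reported here.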

Additional observations from a re-analysis of the deposited data

Results flagged for a closer look

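In 6 of the transcripts named by rule, 4 of them by the rule for the interaction, both *arp8-AA* pairs moved one way and both *ARP8* pairs the other. Such a pattern was found in 405 of 5453 transcripts (7.43%). *PSR2*, a plasma membrane phosphatase, was at 95.9, 72.7, 77.7 and 43.9 CPM in *arp8-AA* cells and at 84.1, 105.2, 74.0 and 77.9 CPM in *ARP8* cells, and the difference of the log2 fold changes was -0.80. *SMD3*, a core protein of the spliceosome, was at 6.07, 14.7, 13.3 and 18.7 CPM against 17.4, 11.5, 19.7 and 12.9 CPM, with a difference of 1.34. YHL050C, a subtelomeric reading frame of which 90.3% of 31-mers occur in another coding sequence, was at 10.1, 6.52, 9.59 and 3.93 CPM against 11.8, 17.3, 8.56 and 20.2 CPM, with a difference of -1.81, and its counts are uncertain. *YML6*, a protein of the mitochondrial ribosome, was at 3.24, 7.5, 4.21 and 11.8 CPM against 9.08, 4.33, 5.92 and 5.88 CPM, with a difference of 1.91, although its change in replicate 2 of *ARP8* was only -0.0093 on the log2 scale. From the list of the mitochondrial ribosome, *RSM23* was at 83.7, 68.1, 89.5 and 57.02 CPM against 65.1, 69.5, 74.4 and 99.3 CPM, with a difference of -0.72. *MRPL51*, from the same list, was at 28.7, 35.5, 37.2 and 54.1 CPM against 31.2, 30.1, 53.97 and 45.2 CPM, with a difference of 0.60. Of the 31-mers of *MRPL51*, 74.6% occur in another coding sequence, and its counts are uncertain. By edgeR's test of the interaction, each of these differences had an adjusted p of 0.962.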

How the results depend on the processing

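Without the replicate block, the counts called amounted to 0 higher and 0 lower for *arp8-AA* cells and 0 in *ARP8* cells, and the adjusted p of *ADE17* was 1. With a separate replicate block for each culture, 9 transcripts passed the threshold higher and 20 lower in *arp8-AA* cells, and the interaction passed it for 1. Without the filter on low counts the numbers were 9 and 13, and 12 in *ARP8* cells. DESeq2 gave 10 and 28, 28 in *ARP8* cells and 1 for the interaction. With the *arp8-AA* libraries alone, 0 were called lower, and an adjusted p under 0.1 gave 5 higher and 8 lower. When 1 replicate of a genotype was left out, the counts in *arp8-AA* cells ranged from 0 to 42 higher and from 0 to 57 lower, those in *ARP8* cells from 0 to 180 and those of the interaction from 0 to 6. DESeq2's size factor method in edgeR, a minimum of 10 CPM in 2 libraries and limma-voom moved none of these counts by more than 1.5 times. The causes were not tested.

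For 34 genes with a fold change in the text, 408 refits kept the direction in all but 1 case, *ELG1*, whose values ranged from -1.62 to 0.081 when a replicate was left out. *ADE17* lost its call in 4 of 12 refits, and genes not called gained a call in 61 cases. Depth was lowest in replicate 1 at 10 min, and with 2 replicates a difference that missed the threshold is not shown to be absent.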
